A study of Mus musculus with 5 samples.

Results

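Group 2 innate lymphoid cells (ILC2s) are tissue lymphocytes without antigen receptors that make type 2 cytokines, and their identity rests on a small set of transcription factor genes. The 10 genes described here are Gata3, Rora, Id2, Bcl11b, Gfi1, Ets1, Runx1, Runx3, Ikzf3 and Hlf. They were taken by symbol from the platform annotation, each as the probe set paired with that symbol alone and, where a gene had several, the one with the highest mean over all arrays. All 10 were found, on 11 probe sets, among 22180 genes on 41345 probe sets, and all 10 passed the filter on dim genes that left 16635 genes for testing.

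The arrays hold total RNA of ILC2s from the lungs of naive adult male mice: 2 arrays of IL-33 knockout mice and 3 of wild-type mice, each labelled a biological replicate. The design asks how ILC2s differ where the alarmin IL-33, a cytokine released by damaged epithelium and stroma, is missing. The extent of the Il33 deletion, the mouse strain, the sorting gate and any pooling of animals are not given in the sources used here. No agent was given to either group.

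In ILC2s these factors act in a hierarchy that is well described in mice. GATA3, a zinc finger activator, is needed for the development and upkeep of the lineage and drives Il5 and Il13. RORα is a nuclear receptor required for ILC2 development, and ID2 holds back the E proteins that would favour T and B cell fates. BCL11B and GFI1 are zinc finger factors that keep other lineages' genes silent, ETS1 supports ILC2 expansion, and the RUNX proteins bind DNA together with CBFβ. Aiolos, the product of Ikzf3, belongs to the Ikaros family, and HLF is a PAR bZIP factor best known from blood stem cells.

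Sequence upstream of the start is shown for 4 of these genes: for Gfi1, the member that stood farthest apart between genotypes, for Gata3, the defining factor of the lineage, and for Runx3 and Id2, which hold letters that members of the set are known to bind. The windows are the 250 bases before a RefSeq start in GRCm38.p6, written 5′ to 3′ on the gene's strand, with matches to the motifs below in capitals.
Gfi1, chr5:107725806-107726055, minus strand: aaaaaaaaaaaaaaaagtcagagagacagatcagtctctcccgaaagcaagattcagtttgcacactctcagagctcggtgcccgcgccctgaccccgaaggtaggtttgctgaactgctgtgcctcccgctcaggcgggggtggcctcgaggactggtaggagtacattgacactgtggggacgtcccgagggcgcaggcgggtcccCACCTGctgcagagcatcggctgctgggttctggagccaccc
Gfi1, chr5:107724344-107724593, minus strand: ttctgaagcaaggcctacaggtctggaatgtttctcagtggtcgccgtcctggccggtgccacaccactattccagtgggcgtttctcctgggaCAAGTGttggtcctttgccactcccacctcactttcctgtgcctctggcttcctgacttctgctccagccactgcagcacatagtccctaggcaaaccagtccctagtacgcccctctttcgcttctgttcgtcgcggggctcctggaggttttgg
Gata3, chr2:9878601-9878850, minus strand: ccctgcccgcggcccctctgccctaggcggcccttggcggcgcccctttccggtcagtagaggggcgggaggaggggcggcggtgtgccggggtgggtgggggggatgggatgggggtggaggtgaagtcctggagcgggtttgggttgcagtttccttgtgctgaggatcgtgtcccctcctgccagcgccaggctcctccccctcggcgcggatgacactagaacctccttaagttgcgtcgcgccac
Runx3, chr4:135120395-135120644, plus strand: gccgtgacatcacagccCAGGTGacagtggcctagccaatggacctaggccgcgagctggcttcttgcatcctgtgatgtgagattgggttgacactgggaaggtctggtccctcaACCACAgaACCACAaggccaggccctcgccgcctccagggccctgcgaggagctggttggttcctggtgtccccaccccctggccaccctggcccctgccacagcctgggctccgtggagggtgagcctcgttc
Id2, chr12:25096093-25096342, minus strand: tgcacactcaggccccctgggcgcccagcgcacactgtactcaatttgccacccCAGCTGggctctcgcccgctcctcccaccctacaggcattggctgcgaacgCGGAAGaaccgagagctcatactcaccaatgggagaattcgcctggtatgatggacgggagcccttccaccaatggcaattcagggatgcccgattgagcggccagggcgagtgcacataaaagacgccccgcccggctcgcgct

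The promoter sequences used here held 11 such windows for 8 of the 10 genes, and lacked Ets1 and Ikzf3. Searched on both strands, the RUNX letters TGTGGT occurred in 1 member gene, Runx3, as a pair of ACCACA runs 134 to 129 and 126 to 121 bases before the start. The same letters lie in 14.0% of all 32851 promoter windows of this length. The ETS letters CGGAAG occurred in Id2 alone among the members, and in 13.6% of all windows. The E-box CANNTG, the site of the E proteins that ID2 opposes, was present in 5 member genes (Gfi1, Id2, Runx1, Runx3 and Hlf). It lay in 6 of the 11 member windows, against 66.2% of all windows. The GATA letters AGATAA, the ROR half-site AGGTCA, the GFI1 letters AAATCA and the PAR bZIP sites TTACGTAA and TTATGTAA were not in these windows of the members, against 9.99%, 14.0%, 12.4% and 0.931% of all windows. No capital run in the windows printed overlaps another. These matches describe letters and not binding.

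Signals are log2 values, as deposited, and the number of arrays limits their precision. Array medians lay between 4.29 and 4.33. Over all probe sets, which are not independent of each other, Pearson's r was 0.893 between the knockout arrays and 0.929 to 0.933 between wild-type arrays. For the 6 pairs of a knockout and a wild-type array it was 0.894 to 0.918. Xist, the X inactivation RNA of female cells, had a signal of 7.91 in knockout replicate 2, while knockout replicate 1 read 3.10 and wild-type arrays 2.35 to 3.10, although every array is labelled male. Kdm5d, which lies on the Y chromosome, read 4.79 in that array, 5.57 in knockout replicate 1 and 5.57 to 5.63 in wild type. Each difference of the 10 genes is therefore also given with knockout replicate 1 alone. Il33 was near the floor, at 3.79 and 3.95 in knockout and 3.32 to 3.39 in wild-type arrays, and does not check the genotype. ILC2 markers were present: 9 of 10 measured ILC2 markers lay above the median gene (4.48) on all 5 arrays, among them Il7r, Kit and Klrg1. Of 8 T cell markers, 4 (Cd3e, Cd3g, Cd6 and Lat) lay above the median gene on all arrays. Cd3g and Lat were bright, at 9.10 and 9.57 or more, while Cd4 stayed at 4.16 or less and Cd8a did not exceed 4.16. Of the B cell and myeloid markers, 0 of 5 and 0 of 9 lay above the median gene on all arrays. For NK and ILC1, neutrophil and fibroblast markers this was 1 of 6, 1 of 5 and 2 of 8. For mast cell and basophil, epithelial and endothelial markers it was 3 of 6, 4 of 10 and 4 of 8. The mean of 10 epithelial markers was 5.57 and 4.86 in knockout arrays, against 4.32 to 4.50 in wild type. Of these 10, 4 were higher without overlap, while Cdh1 differed by -0.26, Krt18 by -0.05 and Krt8 by 0.02. Scgb1a1, a club cell gene, read 8.81 and 5.93 in knockout arrays, against 3.62 to 5.01 in wild type. Bpifa1, an airway secretory gene, read 8.52 and 3.22 against 2.85 to 3.22. Without these 2 genes the other 8 averaged 4.79 and 4.93 in knockout arrays, against 4.48 to 4.65 in wild type. The mean of 8 endothelial markers was 4.90 and 5.19 in knockout arrays, against 4.60 to 4.82 in wild type, with 2 genes higher and 1 lower without overlap. That of 6 mast cell and basophil markers was 4.97 and 4.83 against 4.71 to 4.78, with 1 gene higher without overlap. The mean of 8 T cell markers was lower, at 5.745 and 5.748 in knockout arrays against 5.83 to 5.86 in wild type, with 1 gene higher and 2 lower without overlap. Whether RNA of these cells has a part in any difference of the factors was not tested. In such bulk samples, fewer cells of a type and less RNA per cell cannot be told apart.

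Gata3 was bright in every sample. Its probe set read 8.21 and 7.89 in knockout arrays, against 8.21, 8.16 and 8.50 in wild-type arrays. Knockout replicate 1 shared its value with wild-type replicate 1, so the groups overlapped. The difference, knockout minus wild type, was -0.24 with a standard error of 0.17, and limma's 95% interval ran from -0.71 to 0.22, a ratio between 0.613 and 1.17. With knockout replicate 1 alone it was -0.079, and with replicate 2 alone -0.40. A second Gata3 probe set was dim, with 4.81 and 5.21 in knockout and 4.83, 4.48 and 4.81 in wild-type arrays. It differed by 0.31 the other way, and averaging both probe sets turned the sign of Gata3 to 0.033.

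Gfi1 encodes a transcriptional repressor that in mouse ILC2s supports Gata3 and the response to IL-33. It was the member that stood farthest apart, with 5.40 and 5.21 in knockout arrays against 4.90, 4.90 and 4.63 in wild-type arrays. The groups did not overlap, with a gap of 0.31 at the nearest pair. The means were 5.30 ± 0.13 (SD, n = 2) in knockout and 4.81 ± 0.16 (SD, n = 3) in wild type. The difference was 0.49 with a standard error of 0.12, a ratio of 1.41 with a 95% interval of 1.10 to 1.79. With limma the unadjusted p was 0.0175 and the adjusted p over all genes tested 0.518, so Gfi1 did not pass. The difference was 0.58 with knockout replicate 1 alone and 0.40 with replicate 2 alone. Its signal lay near the median gene, and limma's unadjusted p was 0.0552 with the replicate number as a block and 0.0725 against a minimum fold of 1.2. No knockout array is numbered 3, so the block sets wild-type replicate 3 aside.

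Bcl11b, whose product sustains Gfi1 in mature mouse ILC2s, was nearly level between the knockout arrays and highest in wild-type replicate 3. It read 8.58 and 8.55 in knockout arrays, against 8.59, 8.61 and 8.87 in wild-type arrays. The groups did not overlap, but the lowest wild-type array lay only 0.0095 above the higher knockout array. The difference was -0.13, with a 95% interval from -0.44 to 0.18, and it was -0.11 and -0.14 with each knockout array alone.

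Id2 had the smallest difference of the 10 genes. It read 8.860 and 9.179 in knockout arrays, with 9.085, 9.065 and 8.999 in wild-type arrays. The knockout arrays lay on either side of all wild-type arrays. The difference was -0.030, with a 95% interval from -0.35 to 0.29. With knockout replicate 1 alone it was -0.19 (limma's unadjusted p 0.0398, adjusted p 0.265), and with replicate 2 alone its sign turned to 0.13.

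Rora, the gene whose loss in staggerer mice removes ILC2s, read 7.74 and 7.24 in knockout arrays, against 7.21, 6.95 and 7.22 in wild-type arrays. Knockout replicate 1 was clearly higher, while replicate 2 exceeded the highest wild-type array by only 0.028. The difference was 0.37 with a standard error of 0.20 and a 95% interval from -0.18 to 0.92. With knockout replicate 1 alone it was 0.62, and with replicate 2 alone 0.12.

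Ikzf3 read 8.04 and 7.43 in knockout arrays, against 7.03, 7.20 and 7.43 in wild-type arrays. Again 1 knockout array was well above the others, and knockout replicate 2 cleared wild-type replicate 3 by 0.0040. The difference, 0.51 with a standard error of 0.24, was the widest of the 10 genes, and its 95% interval ran from -0.16 to 1.19. It was 0.82 with knockout replicate 1 alone and 0.21 with replicate 2 alone. In median-centred values the groups of Rora and Ikzf3 overlapped.

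**Figure D1:**
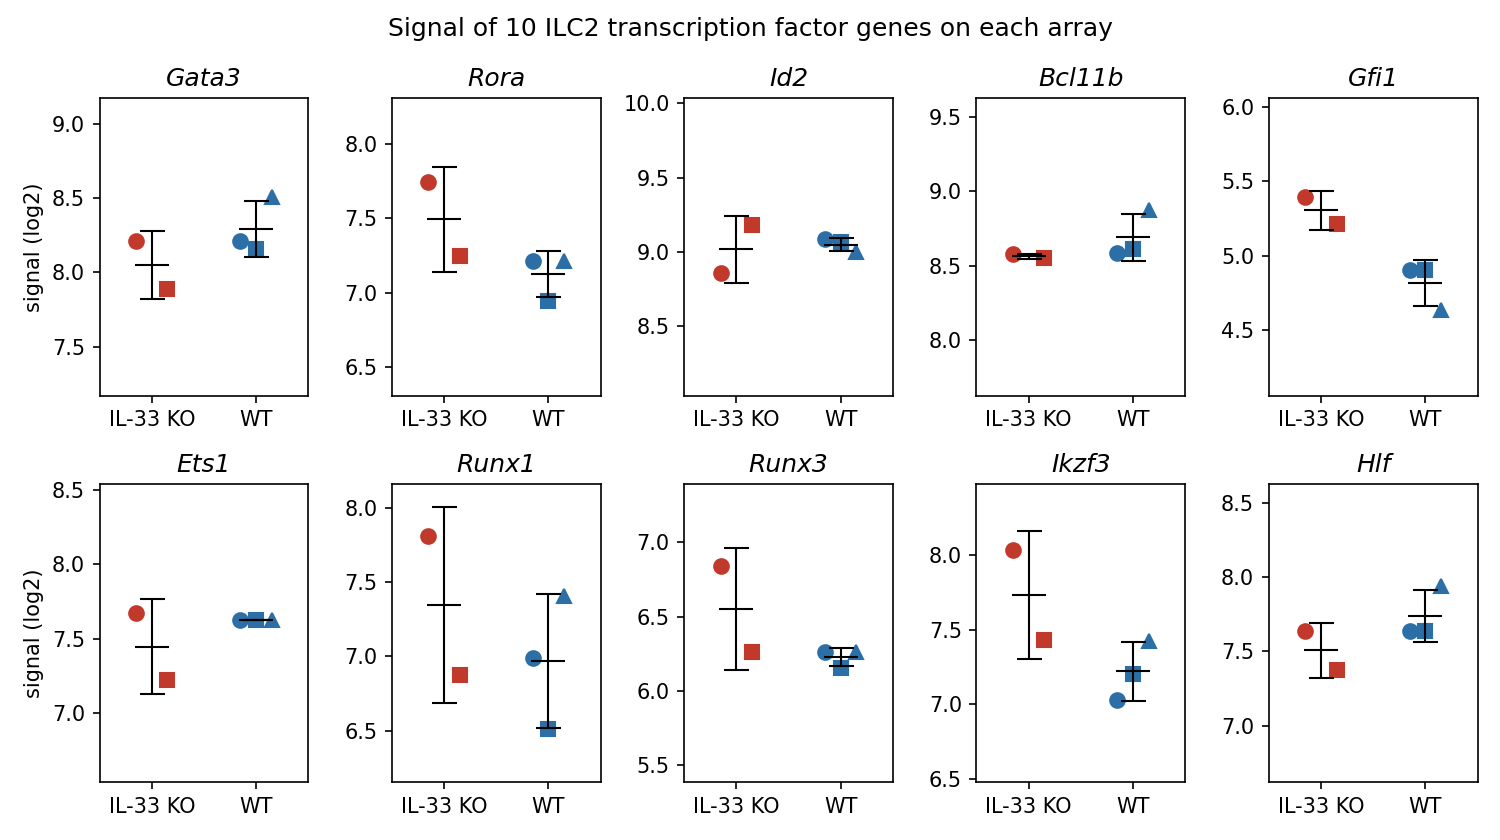
Signal (log2) of each gene on the 2 IL-33 knockout arrays (red) and the 3 wild-type arrays (blue), with circles, squares and triangles for replicates 1, 2 and 3 and bars for mean ± SD. Every panel spans 2 log2 units; Gfi1 shows a gap of 0.31 between the groups, and Gata3, Id2, Ets1, Runx1, Runx3 and Hlf overlap.

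The RUNX genes encode DNA-binding partners of CBFβ, which in mice restrain ILC2 activation. Runx1 varied most, with 7.81 and 6.88 in knockout arrays against 6.99, 6.51 and 7.41 in wild-type arrays. Knockout replicate 1 was above, and replicate 2 within, the wild-type range. The difference of 0.37 had a 95% interval from -0.82 to 1.57. It was 0.84 with knockout replicate 1 alone and turned to -0.092 with replicate 2 alone.

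Runx3 read 6.84 and 6.26 in knockout arrays, against 6.26, 6.16 and 6.26 in wild-type arrays. Replicate 2 had exactly the value of wild-type replicates 1 and 3, so the difference of 0.33 came from knockout replicate 1. The 95% interval was -0.23 to 0.88. The difference was 0.62 with replicate 1 alone and 0.035 with replicate 2 alone.

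Ets1 read 7.67 and 7.22 in knockout arrays, while all 3 wild-type arrays had exactly the same value, 7.63. The knockout arrays lay on either side of it. The difference was -0.18, with a 95% interval from -0.61 to 0.25. With knockout replicate 1 alone it was 0.043. With replicate 2 alone it was -0.41, and limma's adjusted p of 0.0201 made Ets1 the only member called in any of 14 alternatives. That fit has 1 knockout array, with the spread taken from the wild-type arrays, which was 0 for this gene, and the array is the one with the high Xist signal.

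Hlf read 7.64 and 7.38 in knockout arrays, against 7.64, 7.64 and 7.94 in wild-type arrays. The difference was -0.23, with a 95% interval from -0.64 to 0.18, and it was -0.10 with knockout replicate 1 alone and -0.36 with replicate 2 alone. Knockout replicate 1 shared its value exactly with wild-type replicates 1 and 2. Across the 10 genes, 5 had 5 distinct values over the 5 arrays, against 36.4% of all genes tested, and equal values make the spread of the others appear smaller.

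**Figure D2:**
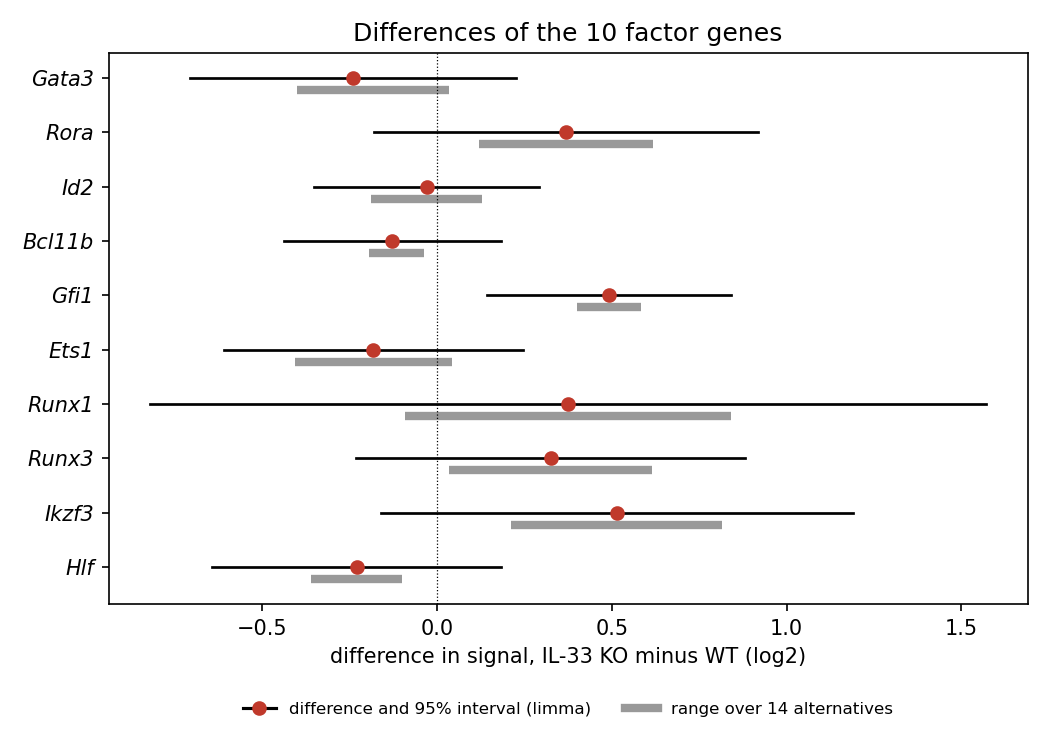
Difference in log2 signal, IL-33 knockout minus wild type, for each gene (red point) with limma's 95% interval (black line) and the range of the difference over 14 alternatives (grey bar). The interval of Gfi1, before any adjustment for multiple tests, runs from 0.14 to 0.84, and those of the other genes include 0.

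As a set, the 10 genes were close to balanced, with 5 above and 5 below 0 in difference. Over all genes tested, 57.1% of differences lay above 0. Of the 10, 0 passed an adjusted p of 0.05 with limma, as did 0 (0%) of the 16635 genes tested. Gfi1, on the higher side, was the 1 member with an unadjusted p below 0.05. The share of all genes with such a p was 7.64% (1271 genes), 5.05% higher and 2.59% lower. The groups did not overlap for 4 members, 3 higher (Rora, Gfi1, Ikzf3) and 1 lower (Bcl11b). Over all genes tested that share was 18.0%, with 11.6% higher and 6.32% lower. Apart from Gfi1, the gaps behind this count were 0.028 or less. The median difference of the members was 0.15, against 0.04 over all genes tested, and the median size without sign was 0.28 against 0.17.

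For 8 of 10 members the knockout arrays differed from each other by more than the genotype means did, as for 56.9% of all genes tested. Knockout replicate 1 read higher than replicate 2 for 9 of 10 genes, all but Id2, where 45.7% of all genes tested did so. That share is not matched for brightness, and members ranked from percentile 62.3 (Gfi1) to 98.4 (Id2) by mean signal. The upper quartile of signal was 5.66 for knockout replicate 1 but 5.57 for replicate 2. Wild-type arrays had 5.64 to 5.73. Most of the tested relatives and cofactors listed below were also higher in replicate 1, while the downstream genes were more evenly split. Whether the direction is particular to the factors was not tested. The median absolute gap between the knockout arrays was 0.39 for the members, against 0.22 over all genes tested. The median range over the 3 wild-type arrays was 0.28 for the members, against 0.27 over all genes tested. Relative to the wild-type mean, the members had a median of 0.31 in knockout replicate 1 and of -0.029 in replicate 2. Over all genes tested these medians were 0.03 and 0.01. In the same 2 arrays 5 neutrophil markers averaged 4.60 (replicate 1) and 3.82 (replicate 2), with wild-type means of 3.66 to 3.99. The mean of 6 NK and ILC1 markers went the other way, at 3.80 and 4.25, with wild-type means of 3.79 to 3.90. Among these, Gzma read 3.84 and 6.56. The mean of all 10 epithelial markers was higher in replicate 1 than in replicate 2, and without Scgb1a1 and Bpifa1 it was lower there. Xist was high in replicate 2. The part of these in the gap was not tested.

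**Figure D3:**
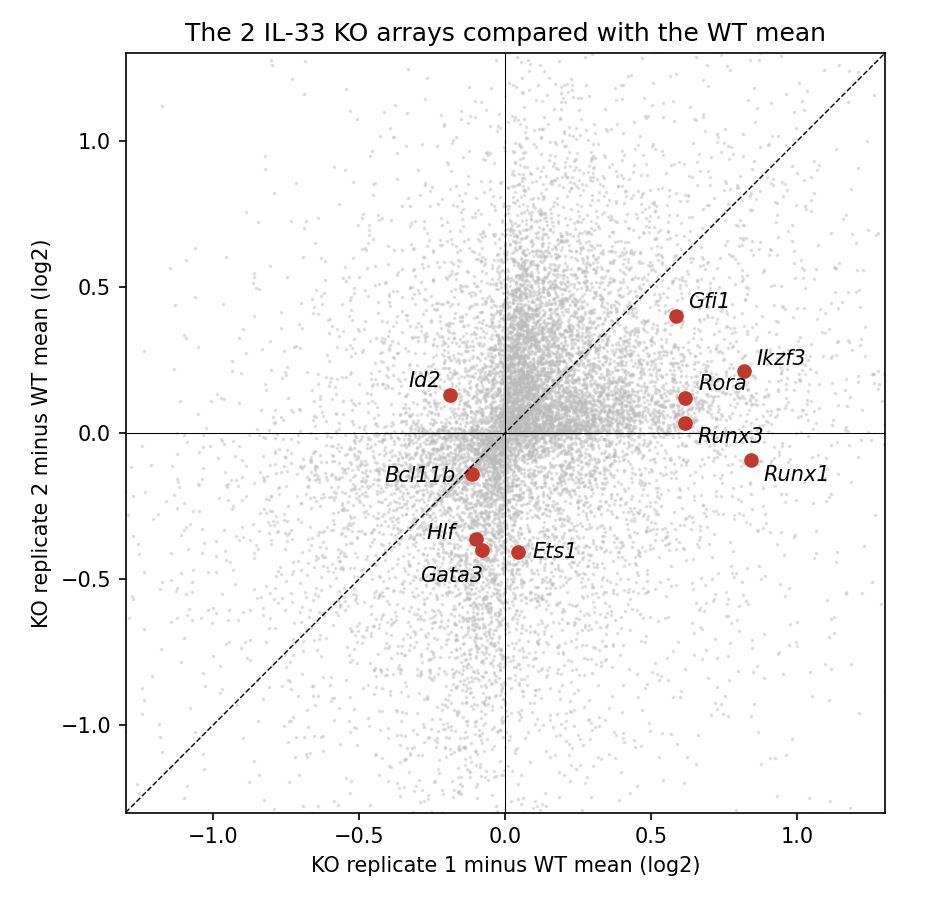
Each gene's signal in knockout replicate 1 (horizontal axis) and knockout replicate 2 (vertical axis), both minus the wild-type mean (log2), for the 10 factor genes (red, named) and all 16635 genes tested (grey; 657 lie beyond the axes). All factor genes but Id2 lie below the dashed line of equal values, and Gfi1 and Ikzf3 are the ones above 0.2 on both axes.

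Profiles over the 5 arrays were compared by the root mean square difference of centred values among 85 tested genes of the lists described next. The gene nearest to Gata3 was another member, Hlf, at 0.027, followed by Tox at 0.09 and Chd4 at 0.10. Tox encodes a factor of early innate lymphoid progenitors, and Chd4 the ATPase of the NuRD complex. The genes nearest to Gfi1 were Gata1 at 0.09, Id1 at 0.11 and Id4 at 0.13. With 5 arrays and many exactly equal values, such likeness is a description of these samples.

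Relatives of the 10 factors included Gata1, an erythroid and mast cell factor gene, which had 4.13 and 4.05 in knockout arrays against 3.61, 3.63 and 3.58 in wild-type arrays. This probe set lay below the median gene on every array. The mean of the mast cell and basophil markers was also higher in both knockout arrays, and its part in the Gata1 difference was not tested. Id4, an ID family gene, differed by 0.52 and also lay near the median gene. Elf4, an ETS factor gene that restrains lymphocyte proliferation in mice, had 7.27 and 6.67 in knockout arrays against 7.94, 7.87 and 8.23 in wild-type arrays, a difference of -1.04 (SE 0.24). Elf1, also of the ETS family, differed by 0.30. Of 22 relatives tested, 13 lay above 0, 8 below and 1 at 0 in difference, and 0 passed limma's adjusted p, the lowest of which was 0.402. With limma's unadjusted p below 0.05, 3 were higher and 1 lower, against 5.05% and 2.59% over all genes tested. The groups did not overlap for 4 higher and 1 lower, against 11.6% and 6.32%. The median difference was 0.03.

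Among cofactors and partners, Cbfb, the shared partner subunit of Runx1 and Runx3, stood apart most. It had 6.41 and 6.72 in knockout arrays, against 6.04, 5.88 and 6.07 in wild-type arrays, a difference of 0.57 (SE 0.13). The groups did not overlap, and the higher knockout array was replicate 2, whereas for Runx1 and Runx3 it was replicate 1. The corepressor genes Tle1 and Tle4 differed by 0.38 each, and the E protein gene Tcf12, whose product ID2 binds, by 0.48. Of 21 tested, 10 lay above and 11 below 0. At limma's unadjusted p below 0.05, 2 were higher and 0 lower, against 5.05% and 2.59% over all genes tested. Without overlap of the groups, 4 were higher and 1 lower, against 11.6% and 6.32%. Of the 21, 0 passed, with a lowest adjusted p of 0.488. The median difference was -0.03.

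Receptor, cytokine and regulator genes that act downstream of these factors or mark mature ILC2s held the widest differences. Rxrg, a retinoid X receptor gene, had 5.65 and 5.66 in knockout arrays, against 4.26, 4.26 and 4.46 in wild-type arrays, a difference of 1.32 (SE 0.08) and a ratio of 2.51. Its adjusted p was 0.327, the lowest over all genes tested. Icos, a costimulatory receptor gene, differed by 1.27, while Il17rb, for the IL-25 receptor, and Nmur1, for the neuromedin U receptor, differed by -0.23 and -0.56. Of 20 tested, 9 lay above and 11 below 0, and 0 passed limma's adjusted p. At its unadjusted p below 0.05, 3 were higher and 3 lower, against 5.05% and 2.59% over all genes tested. The groups did not overlap for 7 of the 20, 4 higher and 3 lower (18.0% over all genes tested), and the median difference was -0.05. This list, like the others, was chosen with earlier results of these data known.

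Factors that mark other lineages or progenitors were mostly dim or overlapped between the groups. Tbx21, the T-bet gene of ILC1s, had 5.24 and 4.90 in knockout arrays against 4.67, 4.90 and 4.90 in wild-type arrays, with overlap. Foxp3, the regulatory T cell factor gene, differed by 0.61 but read 4.16 and 4.36 in knockout and 3.46 to 3.75 in wild-type arrays, all below the median gene. Ahr, a ligand-activated factor gene prominent in gut ILCs, differed by -0.41, and Lef1, a T lineage and progenitor factor gene, by 0.48, both with overlap. Of 13 tested, 8 lay above and 5 below 0. With limma, Foxp3 alone had an unadjusted p below 0.05, against 7.64% of all genes tested. Of the 13, 0 passed, with a lowest adjusted p of 0.473. The groups did not overlap for Foxp3 alone, against 18.0% of all genes tested. The median difference was 0.21, against 0.04 over all genes tested.

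**Figure D4:**
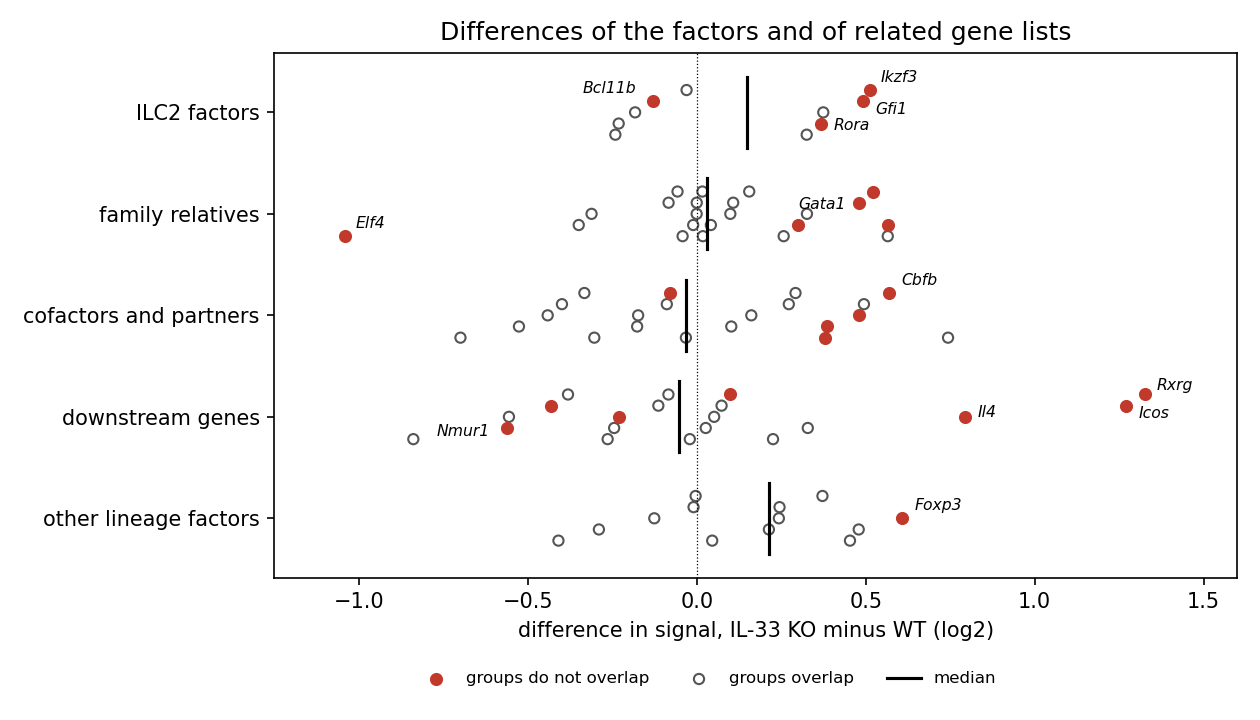
Differences in log2 signal, IL-33 knockout minus wild type, of the tested genes of each list (points, spread vertically for legibility), with filled points where the groups do not overlap and a black line at the list's median. Medians lie between -0.05 and 0.21, and Elf4 at -1.04 and Rxrg at 1.32 are the outermost points.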

How the data were processed

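Trizol-extracted total RNA was biotin-labelled with the Nugen Encore kit, per the labels' protocols. The authors deposited log2 signals per probe set; RMA and Affymetrix Expression Console are the tools named in the submitters' processing notes. Versions, settings and genome build are not given in the sources used here. Arrays are usually equalised by RMA, which would hide any change common to all transcripts. Many values were exactly equal between arrays (13.2% to 18.2% of probe sets for a pair of arrays).

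Of 41345 probe sets, 23521 had 1 symbol in the platform annotation, 1814 several and 16010 none. Symbols were updated through gene identifiers from RefSeq (GRCm38.p6), where 23328 were found. The probe set with the highest mean stood for each of 22180 genes, and the 25% with the lowest mean were left out. The test was limma 3.58.1 under R 4.3.3 (lmFit, then eBayes, on 2 knockout and 3 wild-type arrays, no block, Benjamini-Hochberg over 16635 genes, threshold 0.05), tested on simulated data. An exact permutation of 5 arrays has 10 splits and gives p = 0.1 at the lowest, so no such p is given. The labels do not say whether replicates were separate animals or pools, so p-values measure the spread between these samples. The members and lists were chosen with earlier results of these data known. Named beyond the 10 members were the 4 genes of each list with the smallest p, the genes most alike to Gata3 and to Gfi1, Il33 and Xist; Kdm5d, the single markers and the epithelial mean without Scgb1a1 and Bpifa1 were chosen after their values were seen. Il1rl1, Areg and other listed genes without a probe set of their own symbol were not analysed here.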

Additional observations from a re-analysis of the deposited data

How the results depend on the processing

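Over 14 alternatives, 136 of 140 differences of single members kept their direction. Those of Rora, Bcl11b, Gfi1, Runx3, Ikzf3 and Hlf did so in all 14. Part of this count was fixed in advance. Changes of the dim-gene filter, of the eBayes options and to a minimum fold of 1.2 left every difference as it was. Averaging probe sets could change Gata3 alone. The replicate block gave every member the same difference as leaving out wild-type replicate 3, since no knockout array has that number. Gfi1 ranged from 0.40 to 0.58 (limma's adjusted p from 0.286 to 1). Gata3 turned to 0.033 with the mean of its probe sets. Leaving out 1 array gave ranges of -0.19 to 0.13 for Id2, -0.092 to 0.84 for Runx1 and -0.41 to 0.043 for Ets1, which include both signs. For these genes the sign turned only where a knockout array was left out. Why the knockout arrays differ was not tested. Of the members, 3 (Rora, Gfi1, Ikzf3) had an unadjusted p below 0.05 with limma after quantile normalization, and 0 with the replicate block or a minimum fold of 1.2. After quantile normalization 1361 of all genes tested had such a p. The groups did not overlap for 7 members after quantile normalization and for 2 after median centring. The share over all genes was not computed under these 2 settings, so the counts have no background. Leaving out 1 array gave 0 to 1 members past the adjusted threshold, 1 to 5 at an unadjusted p below 0.05, 4 to 8 without overlap, and a median of the members from -0.029 to 0.31. Over all genes, 1072 passed without knockout replicate 1, 389 without knockout replicate 2 and 0 without any wild-type array. In the same fits 0 to 4 family relatives, 0 to 3 cofactors, 0 to 3 downstream genes and 0 to 1 other lineage factors passed. The fits without a knockout array hold 1 such array, assumed to vary like wild type. A single array overlaps the wild-type arrays only where it lies within their range. The share of all genes without overlap was not computed with any array left out, so the member counts without overlap have no background there. An unadjusted p below 0.05 was also more frequent over all genes in both fits without a knockout array than in the main one. The highest member count at that p came from the fit without knockout replicate 2. Its spread is taken from the wild-type arrays alone, so that count cannot be set against the main fit. In each fit without a wild-type array 1 member had such a p, with 944 to 1063 of all genes. Whether the larger member counts, at that p or without overlap, are particular to the factors was not tested. Over all genes, 823 had an unadjusted p below 0.05 with array weights and 480 with the minimum fold, against 1271. The replicate block is no pairing: deviations of same-numbered arrays correlated at -0.05 and 0.14, and with it 1114 genes had an unadjusted p below 0.05 and 0 passed. The number of arrays limits every value, and signals near the median gene, as for Gfi1, are less certain.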
